A study of Homo sapiens with 26 samples.

Results

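The comparison described here sets the 1 array labelled pTR against the 1 array labelled pTV, 2 of the 26 arrays of a study of 786-O cells. 786-O is an established human clear cell renal carcinoma line. The arrays were chosen by their titles, and all probe sets of the deposited table were read. The study measured total RNA on Affymetrix U133 Plus 2.0 arrays in untreated cells, in cells given the vehicle DMSO and in cells given 1 of 4 HIF-2a inhibitor compounds, labelled 40, 41, 76 and 77, each on 3 arrays, with further arrays labelled PRC3 (3 arrays) and WT8 (3 arrays). The 3 arrays labelled Blk stand in the place of the untreated group, though the labels do not spell the name out. The labels give no meaning for pTR, pTV, PRC3 or WT8, no dose and no time, and nothing on what all groups share beyond the cell line. PRC3 and WT8 are names in wide use for 786-O sublines that carry an empty vector or wild-type VHL, and this is given as background only. Whether the 3 arrays of each group are separate cultures is not stated, and the p-values below therefore measure only the spread between arrays, which may be technical. With 1 array each, pTR over pTV has no replicate check and no test. The ratio is read instead against the 24 pairs of arrays that belong to the same group and against the tested difference between WT8 and PRC3.

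HIF-2a, the product of EPAS1, is a transcription factor that pairs with ARNT and turns on genes for angiogenesis, glucose handling and growth. The VHL protein marks it for destruction when oxygen is present, and clear cell renal carcinomas usually lack working VHL, so HIF-2a stays active in them. 786-O cells carry this loss and are a standard model for HIF-2a target genes.

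The quality measures of the pTR and pTV arrays lay inside those of the other arrays. The deposited signals of 24 arrays share 1 mean (142.8), and replicates 2 and 3 of compound 40 have means of 165.9 and 173.7. The ratio of the 3' to the 5' probe set of ACTB, which rises when RNA is degraded, was 1.23 on pTR and 1.03 on pTV. It was highest, at 2.37, on WT8 replicate 3. Without that array limma called 636 probe sets lower and 772 higher in WT8, in place of 775 and 822. The part of the ACTB ratio in the pTR and pTV values was not tested. Of the probe sets kept, 18.4% read at the floor of 20 on pTR and 17.7% on pTV. PAX8, a renal lineage factor, gave 1329 on pTR and 1057 on pTV, and from 761 to 1270 with a median of 966 on the other 24 arrays. PAX2, another kidney lineage factor, went the other way, with a log2 ratio of -2.51 for pTR over pTV, and is given with the tubule genes below. Among markers of other cells, the summed signal of 5 measured leukocyte genes was 187 on pTR, 125 on pTV and 109 to 201 on the other arrays, and PTPRC, CD14 and LYZ had no probe set above the filter. Of the 5, ITGAM and CSF1R were at least 2-fold higher on pTR (7.09% of all genes), and 3 were at the floor on pTV. Their median log2 ratio was 0.89, where 2 arrays of 1 group differed by up to 0.94. With log2(signal + 20) it was 0.755 against 0.745, and with a floor of 50 it was 0. The 6 fibroblast genes summed to 288 on pTR and 350.1 on pTV, within the 248 to 537 of the other arrays. The 5 endothelial genes summed to 153 and 152, against 134 to 252.

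RNA came from whole cultures, so fewer cells with a transcript and less of it per cell cannot be told apart. The pTR and pTV arrays differed by at least 2-fold on 4101 of 35013 probe sets (11.7%). Of these, 2084 (5.95%) were lower on pTR and 2017 (5.76%) were higher. The same share among the 24 pairs of arrays of 1 group ran from 2.76% to 12.1%, with a median of 4.89%. One such pair, WT8 replicates 1 and 3, lay above pTR with pTV, and the highest share without WT8 replicate 3 was 11.5%, between compound 40 replicates 1 and 2. So the number of differences alone did not set pTR and pTV apart from the widest pair of replicates. The even split depended on the scaling. With the signals as deposited 2494 probe sets were lower and 1719 higher, and with each array scaled to 1 median 1576 were lower and 2842 higher, a scaling that moved the median ratio of all genes to 0.177.

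**Figure D1:**
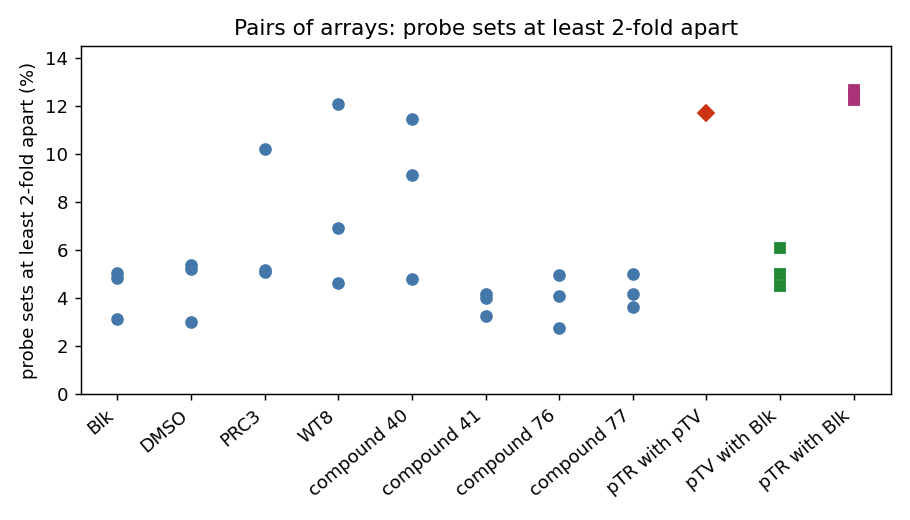
Percent of 35013 probe sets at least 2-fold apart (vertical axis) for each pair of arrays of 1 group (3 pairs per group), for pTR with pTV, and for pTV or pTR with each of the 3 Blk arrays; each point is 1 pair. The pTR with pTV pair, at 11.7%, lies near the widest replicate pair (12.1%), and pTV lies nearer to Blk (4.51% to 6.08%) than pTR does (12.3% to 12.7%).

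A stricter count took only probe sets at least 2-fold apart and further apart than any 2 arrays of 1 group were on that probe set. It held 1274 probe sets lower on pTR (3.64%) and 1368 higher (3.91%), together 7.55% of those kept. Counted against the groups other than its own, a replicate pair gave 0.977% to 7.51%, with a median of 1.92%. Over genes, each read from its brightest probe set, 413 of 15124 (2.73%) were lower on pTR past that spread and 746 (4.93%) higher. Other probe sets of the same genes leaned the same way: 356 of 471 (75.6%) for the lower genes and 467 of 652 (71.6%) for the higher ones. Fewer were at least 2-fold apart that way, 164 (34.8%) and 185 (28.4%). Their median log2 ratios were -0.61 and 0.48.

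Most of the distance lay on the pTR side. Signals of pTR lay outside the range of the 24 replicated arrays on 6097 probe sets (17.4%), and those of pTV on 2317 (6.62%). Of the 1274 lower probe sets, pTR alone was outside that range on 689 (54.1%) and pTV alone on 228 (17.9%). Of the 1368 higher ones, pTR alone was outside on 952 (69.6%) and pTV alone on 108 (7.89%). The Pearson correlation of pTV with the 3 Blk arrays across probe sets was 0.958 to 0.967, and that of pTR was 0.927 with each, as a description of arrays that share 1 scale.

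**Figure D2:**
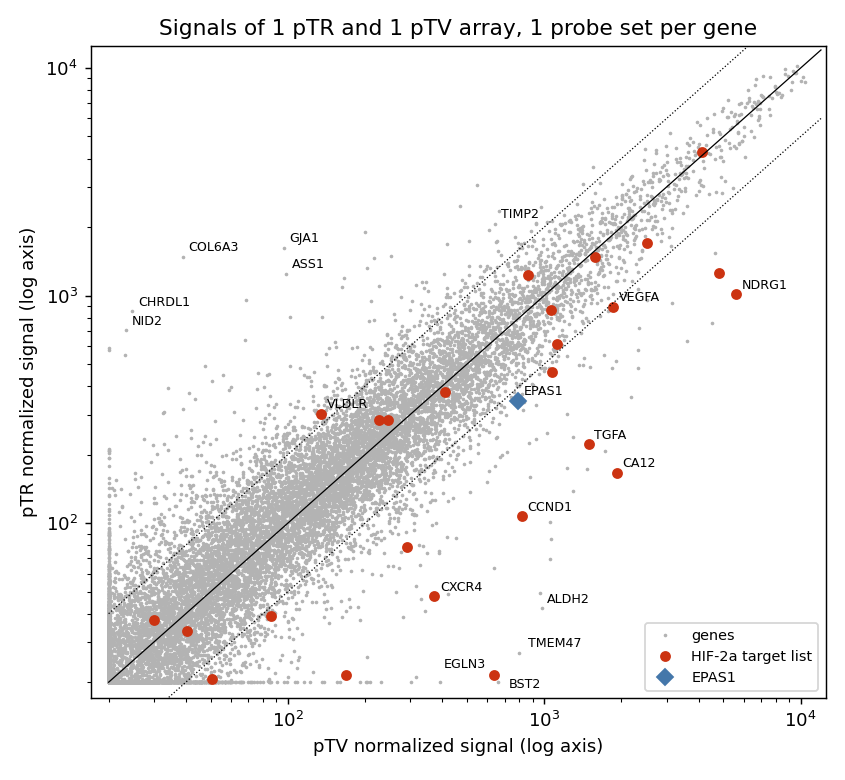
Normalized signal on pTR (vertical, log axis) against pTV (horizontal, log axis) for 15124 genes, 1 probe set each, with the HIF-2a target list and EPAS1 marked; the solid line is equality and the dotted lines are 2-fold. CA12, CCND1, CXCR4 and EGLN3 lie far below equality and COL6A3, CHRDL1 and NID2 far above it.

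EPAS1, the gene of HIF-2a itself, read 344 on pTR and 789 on pTV. It read 575, 502 and 566 on the WT8 arrays and 925, 647 and 608 on the PRC3 arrays, and from 250.1 to 925 with a median of 474 on all 24. Thus pTV was above 23 of the 24 arrays and pTR was above 4. The pTR signal was 2.29-fold lower than that of pTV, a log2 ratio of -1.20, just past the largest difference between 2 arrays of 1 group on that probe set (1.12). Both EPAS1 probe sets were lower on pTR, but the other one, at -1.679, did not pass its limit of 1.681. The ratio of the brighter probe set was -0.89, under 2-fold, when arrays were scaled to 1 median. WT8 and PRC3 did not differ on EPAS1 at the threshold, with a log2 difference of -0.38 (SE 0.24, adjusted p = 0.489).

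Of the other oxygen-sensing genes, EGLN3 was past the within-group spread and is given with the HIF-2a targets. VHL, the ubiquitin ligase subunit that recognises HIF, read 74.3 on pTR and 81.3 on pTV, both above 23 of the 24 arrays. It has 1 probe set here, which read 67.5, 68 and 42 on the WT8 arrays and 83.8, 42.9 and 39.6 on the PRC3 arrays. WT8 and PRC3 did not differ on VHL at the threshold by limma (log2 difference 0.15, SE 0.27, adjusted p = 0.886). ARNT, the partner of HIF-2a, read 33.6 on pTR and 70.9 on pTV, a log2 ratio of -1.08 where 2 arrays of 1 group differed by up to 2.18. The other ARNT probe sets gave -0.53, -0.39, -0.34 and 0.42, all under 2-fold. EGLN1, the main prolyl hydroxylase that marks HIF for VHL, read 284 on pTR and 246 on pTV. HIF1A had no probe set above the filter.

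Genes of the HIF-2a target list were mostly lower on pTR. Of 29 genes listed, 25 were measured, and their median log2 ratio was -1.06 against 0.0086 over all genes. At least 2-fold lower were 13 of the 25, against 664 of all 15124 genes (4.39%), and 1 was at least 2-fold higher, against 1072 (7.09%). The largest list median between 2 arrays of 1 group was 0.63 in size. Of the 13, 9 were past the within-group spread of their own probe sets. The pTV signal of 18 of the 25 was above at least 22 of the 24 replicated arrays.

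Promoter sequence was available for 10 of the 13 HIF-2a targets lower on pTR, and 7 of the 10 (70%) held ACGTG or GCGTG, the core letters to which HIF binds, on either strand (also written CACGT and CACGC). The windows ran from 250 bases before to 50 after the start of the gene, from RefSeq on GRCh38.p14. The same letters occurred in 48.4% of all 27305 promoters and in 59.5% of the 12064 promoters of measured genes. They stood in 23 of 40 (57.5%) promoters of genes lower both on pTR and in WT8 and in 30 of 54 (55.6%) of those higher in both. ACGTG alone, on either strand, stood in 2 of the 10 HIF-2a targets (20%) and in 25.2% of the promoters of measured genes. For genes lower in both it stood in 12 of 40 (30%), and for those higher in both in 17 of 54 (31.5%). The match nearest to the start, on its upstream side, is shown for each of the 7 genes with its surroundings, 29 bases from 5' to 3' on the strand of the gene, with the match in capitals. They are CA12 (chr15:63382064-63382092, minus strand), ADM (chr11:10304960-10304988, plus), EDN1 (chr6:12287960-12287988, plus), IGFBP3 (chr7:45921311-45921339, minus), ANGPTL4 (chr19:8363909-8363937, plus), ITPR1 (chr3:4493181-4493209, plus) and CXCR4 (chr2:136118172-136118200, minus).
CA12: gcggatctcaccCACGCctgccagcagct
ADM: gagcaggagcgcGCGTGgctgaggaaaga
EDN1: gacacagacgggGCGTGgtgagtgctgtt
IGFBP3: cgccgttccgggGCGTGtcctgggccacc
ANGPTL4: ggaaagaagagtCACGTctcccacggttc
ITPR1: cccctgtccccgCACGCgtctatttaggg
CXCR4: gccgcgctcggaGCGTGtttttataaaag
A match is a description of letters and not a site of binding. EGLN3, TGFA and ENPP3 had an entry without these letters in the window.

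CCND1, cyclin D1, which drives entry into S phase, read 107 on pTR and 817 on pTV. It read 94.8, 103 and 93.9 on the WT8 arrays and 895, 909 and 971 on the PRC3 arrays, and all 24 replicated arrays ran from 93.9 to 971 with a median of 608. The pTR signal was just above the WT8 arrays, and the pTV signal was below the PRC3 arrays and among the Blk arrays. The pTR signal was 7.60-fold lower than that of pTV (-2.93 on the log2 scale, within-group limit 0.78), and CCND1 fell in WT8 (log2 difference -3.25, SE 0.19, adjusted p = 2.54e-10).

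EGLN3, a prolyl hydroxylase that is itself induced by HIF, gave the lowest log2 ratio of the list. It read 21.5 on pTR and 636 on pTV, and 61.7, 20 and 20 on the WT8 arrays and 1062, 606 and 218 on the PRC3 arrays. The pTR signal was close to the floor, as were 2 of the WT8 arrays, and pTV lay within the PRC3 arrays. The log2 ratio was -4.89 for pTR over pTV and -4.16 (SE 0.47, adjusted p = 4.03e-06) for WT8 over PRC3.

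CA12, a membrane carbonic anhydrase that handles acid, read 167 on pTR and 1925 on pTV. It read 660.4, 754 and 594 on the WT8 arrays and 1941, 1356 and 931 on the PRC3 arrays, and no other array was below 594. So pTR stood below all 24 arrays, WT8 included, while pTV lay near the highest PRC3 and Blk arrays. All 7 probe sets of CA12 were lower on pTR, and the log2 ratio was -3.53 against -1.02 (SE 0.18, adjusted p = 9.02e-04) in WT8. TGFA, a growth factor that activates EGFR, had the same order: 222 on pTR and 1493 on pTV, 604, 891 and 1088 on the WT8 arrays and 1533, 2077 and 1299 on the PRC3 arrays, with pTR again below all 24 arrays. Its log2 ratio was -2.75. In WT8 TGFA fell (log2 difference -0.94, SE 0.22, adjusted p = 0.00958), a call that ended without PRC3 replicate 2 or without WT8 replicate 1.

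NDRG1, a hypoxia-induced stress gene, read 1014 on pTR and 5611 on pTV, 1286, 286 and 266 on the WT8 arrays and 6866, 4587 and 1812 on the PRC3 arrays. The pTR signal lay inside the spread of the WT8 arrays and pTV inside that of PRC3. The log2 ratio was -2.47, past a within-group limit of 2.27 that was itself wide, and the WT8 difference was -3.06 (SE 0.49, adjusted p = 3.72e-04). ITPR1, a calcium channel of the endoplasmic reticulum, read 21.6 on pTR and 168 on pTV, 28.4, 20 and 20 on the WT8 arrays and 342, 229.8 and 88.8 on the PRC3 arrays. Here pTR and the WT8 arrays were at or close to the floor, with log2 ratios of -2.96 for pTR over pTV and -3.09 (SE 0.41, adjusted p = 3.04e-05) for WT8.

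The secreted vascular factors VEGFA, ADM and EDN1 had log2 ratios from -1.89 to -1.06. VEGFA, the main endothelial growth factor, read 894 on pTR and 1859 on pTV, and 324, 189.7 and 241 on the WT8 arrays and 2326, 1522 and 1008 on the PRC3 arrays. Its pTR signal was above every WT8 array and below every PRC3 array. The log2 ratio of -1.06 did not pass the within-group limit of 1.21, while VEGFA fell in WT8 (log2 difference -2.64, SE 0.29, adjusted p = 3.63e-06). All 4 VEGFA probe sets were lower on pTR. Of the others, 1 passed its limit (-1.98 against 1.82), and those at -1.78 and -0.76 did not. ADM, the vasodilator peptide adrenomedullin, read 459 on pTR and 1072 on pTV, 196, 91.3 and 158 on the WT8 arrays and 1438, 1181 and 812 on the PRC3 arrays, so that pTR again lay between the WT8 and PRC3 arrays. The ADM ratio was -1.22 for pTR and -2.98 for WT8 (adjusted p = 1.79e-08). EDN1, the vasoconstrictor endothelin, gave -1.89 from 78.6 on pTR and 290.4 on pTV, within the 2.54 that 2 arrays of 1 group could differ by, and -2.71 in WT8 (adjusted p = 0.00224). Another EDN1 probe set, at the floor on pTR, gave -1.35, past its limit of 0.58. The last gave -1.76, inside its limit of 2.03.

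In WT8 14 of the 25 were called lower (2.71% of all genes were) and 0 higher (3.27%) by limma, and at an unadjusted p below 0.05 the counts were 16 and 1. Lower on both sides, that is by at least 2-fold on pTR and called in WT8, were 10 genes: VEGFA, CCND1, EGLN3, CA12, TGFA, ADM, EDN1, NDRG1, ANGPTL4 and ITPR1. The ANGPTL4 call (adjusted p = 0.0251) ended in 4 of the 6 fits that left out 1 array, those without PRC3 replicate 2 or 3 or without WT8 replicate 1 or 2. The remaining 3 genes lower on pTR were not called in WT8. CXCR4, a chemokine receptor, read 47.6 on pTR and 373 on pTV, 51.9, 24.5 and 73.7 on the WT8 arrays and 325, 118 and 72.5 on the PRC3 arrays, with a ratio of -2.97 past the limit of 2.16. In WT8 it gave -1.63 (SE 0.58, adjusted p = 0.124), and an adjusted p of 0.00338 in the fit blocked on replicate number. IGFBP3, which binds insulin-like growth factors, read 1261 on pTR and 4787 on pTV, 3952, 3299 and 2801 on the WT8 arrays and 6524, 4909 and 1938 on the PRC3 arrays, and ENPP3, an ectonucleotidase, read 39 on pTR and 85.6 on pTV.

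Conversely 4 genes, each read from its brightest probe set, were called lower in WT8 but not 2-fold lower on pTR. SLC2A1, the glucose transporter GLUT1, read 610.4 on pTR and 1117 on pTV, 287, 256 and 272 on the WT8 arrays and 1077, 976 and 969 on the PRC3 arrays, a log2 ratio of -0.87 on pTR and -1.89 in WT8 (adjusted p = 1.02e-07). LOXL2, a collagen cross-linking enzyme, was nearly equal at 1473 on pTR and 1579 on pTV and was 641, 428 and 412 on WT8. PLIN2, the lipid droplet coat protein, gave -0.57, and BHLHE40, a repressor of the clock, gave -0.30. The BHLHE40 call in WT8 (adjusted p = 0.0344) ended without PRC3 replicate 1, without WT8 replicate 1 or without WT8 replicate 2. The other BHLHE40 probe set gave -1.76 on pTR, past its within-group limit of 1.22, and -1.46 in WT8 (limma adjusted p = 0.00761). Of the other LOXL2 probe sets, 1 gave -1.35 on pTR, inside its limit of 2.61, and 1 gave 0.62. The other SLC2A1 probe set gave -0.86 and that of PLIN2 0.50. DDIT4, an inhibitor of mTORC1, was called lower in WT8 in the fit blocked on replicate number (adjusted p = 0.00466) and read 4296 on pTR and 4119 on pTV. VLDLR, a lipoprotein receptor, was the 1 list member at least 2-fold higher, with 303 on pTR and 135 on pTV, the former above all 24 arrays. Whether pTR and WT8 differ on any of these genes was not tested, since pTR has 1 array.

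**Figure D3:**
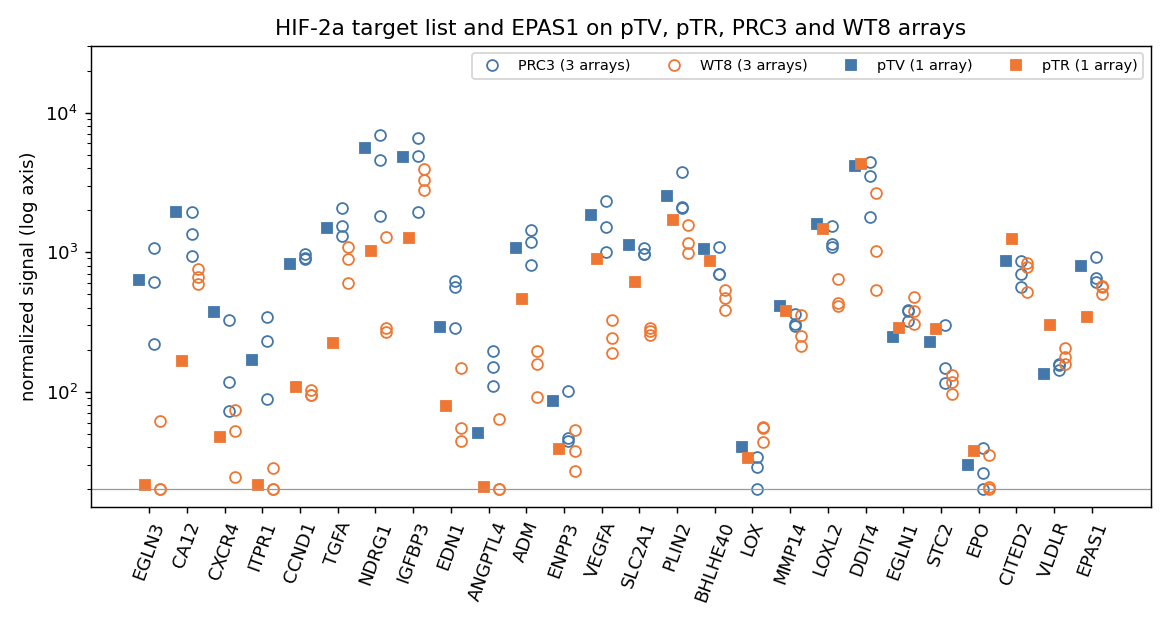
Normalized signal (log axis) of the 25 measured HIF-2a targets, ordered by the pTR over pTV ratio, and of EPAS1; filled squares are the single pTV (blue) and pTR (orange) arrays, open circles the 3 PRC3 (blue) and 3 WT8 (orange) arrays, and the grey line the floor of 20. The pTR square lies below all WT8 circles for CA12 and TGFA and between WT8 and PRC3 for VEGFA and ADM, and from SLC2A1 rightward pTR and pTV differ by less than 2-fold on all but VLDLR and EPAS1.

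Beyond that list, the genes with the largest differences were named among 715 that were past the within-group spread and bright on at least one of the arrays, 251 lower and 464 higher on pTR. BST2, the interferon-induced tetherin that holds virus particles at the cell surface, read at the floor of 20 on pTR and 661 on pTV, and from 609 to 1465 with a median of 967 on the other 24 arrays. It was the single probe set of the whole array that read 40 or less on pTR and 150 or more on all others. The difference was at least 33-fold, and WT8 and PRC3 did not differ on BST2 at the threshold (log2 difference 0.42, SE 0.20, adjusted p = 0.29).

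TMEM47, a junction protein, read 27 on pTR and 795 on pTV and from 132 to 682 with a median of 272 elsewhere, so pTR was the lowest and pTV the highest of all arrays. ALDH2, the mitochondrial aldehyde dehydrogenase, read 42.3 on pTR and 977 on pTV, 789, 563 and 572 on the WT8 arrays and 296, 235 and 177 on the PRC3 arrays. Here the directions were opposite, since ALDH2 rose in WT8 (log2 difference 1.46, SE 0.23, adjusted p = 3.26e-04). TRIM22, an interferon-induced antiviral protein, showed the same opposition, at 21 on pTR and 315 on pTV against a rise in WT8 of 1.16 (SE 0.27, adjusted p = 0.0106), a call that ended without PRC3 replicate 3 or WT8 replicate 2.

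F3, tissue factor, which starts blood coagulation, read at the floor on pTR and 302 on pTV, and 20, 20 and 67.7 on the WT8 arrays and 282, 321 and 584 on the PRC3 arrays. The pTR array and 2 WT8 arrays shared the floor, and the ratios were at least 15.1-fold lower for pTR and -3.64 (SE 0.42, adjusted p = 4.81e-06) on the log2 scale for WT8. CP, ceruloplasmin, the copper-carrying ferroxidase, read at the floor on pTR and 392 on pTV, and SMPDL3A, a phosphodiesterase, 69.6 on pTR and 1051 on pTV. Both fell in WT8, with log2 differences of -1.98 (adjusted p = 0.00594) for CP and -2.49 (adjusted p = 0.0281) for SMPDL3A. The CP call ended without PRC3 replicate 1, and the SMPDL3A call in 4 of the 6 fits that left out 1 array. COXFA4L3, a small mitochondrial protein, read 49.1 on pTR and 961 on pTV, and MYEOV read the floor on pTR and 231 on pTV. They fell in WT8, with log2 differences of -1.67 (adjusted p = 7.49e-04) and -1.80 (adjusted p = 6.27e-05). UGT1A6, a glucuronidation enzyme whose locus shares exons among several UGT1A genes, so that its signal may not be its own, read 85.3 on pTR and 1059 on pTV.

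Among genes measured above the floor on both arrays, the highest ratio was 38.1-fold. COL6A3, a chain of collagen VI, read 1483 on pTR and 38.9 on pTV, 22.8, 21.1 and 25.3 on the WT8 arrays and 20, 32.6 and 27.8 on the PRC3 arrays, and 154, 236 and 188 on the Blk arrays. No other array came near pTR, and pTV resembled WT8 and PRC3 rather than Blk. CHRDL1, a secreted BMP antagonist, read 854 on pTR and 24.8 on pTV, 159, 406 and 368 on the WT8 arrays and 20, 20 and 20 on the PRC3 arrays. All PRC3 arrays were at the floor and all WT8 arrays were above it, and CHRDL1 rose in WT8 (log2 difference 3.85, SE 0.52, adjusted p = 4.15e-05).

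NID2, a basement membrane linker, read 705 on pTR and 23.4 on pTV, and CXADR, a junction protein and virus receptor, read 587 on pTR and the floor on pTV. On the other 24 arrays NID2 stayed at or below 94.9 and CXADR at or below 48.8. GJA1, the gap junction protein connexin 43, read 1624 on pTR and 96.6 on pTV and from 61.4 to 349 with a median of 222 elsewhere. SLC38A5, an amino acid transporter, read 550.1 on pTR and 23.2 on pTV, and GSTM3, a glutathione transferase, 957 on pTR and 68.8 on pTV. Both were above all 24 arrays on pTR. HPSE, the heparan sulfate-cleaving heparanase, read 212 against the floor, ZNF362 209.6 against the floor, and SHISA9 392 on pTR and 34.1 on pTV, all with no call in WT8.

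ASS1, argininosuccinate synthase, the rate-limiting step of arginine synthesis, read 1246 on pTR and 98.7 on pTV, 583, 349 and 224 on the WT8 arrays and 20, 20 and 25 on the PRC3 arrays. The pTV signal was above all PRC3 arrays and below all WT8 arrays, and pTR was above all 24. ASS1 rose in WT8 (log2 difference 4.05, SE 0.29, adjusted p = 4.09e-09). SERPINH1, a collagen chaperone, read 578 on pTR and the floor on pTV, and 247, 231 and 36.3 on the WT8 arrays and 24.8, 20 and 20 on the PRC3 arrays, with a rise in WT8 of 2.57 (SE 0.55, adjusted p = 0.00594) that ended without WT8 replicate 2.

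A separate count over all 54613 probe sets looked for genes seen on 1 array only. There, 14 probe sets of 12 genes read 200 or more on pTR and 60 or less on each of the other 25 arrays, and 0 did so for pTV. The genes were CDKN1C, CXADR, FOXQ1, FYN, HPSE, LRRC17, MAGEA6, OXTR, RELN, SRGN, TFAP2A and ZNF362, listed because of their values. CDKN1C, the imprinted cyclin kinase inhibitor p57, read 208 on pTR and 20 on pTV. RELN, a secreted guidance protein, read 241 on pTR and 36.7 on pTV, and OXTR, the oxytocin receptor, 237 on pTR and 41.9 on pTV. The levels used for the count make pTR the only array with these genes, so no more is read from it.

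Among 31 gene lists, 6 had a pTR over pTV median beyond that of every pair of arrays of 1 group. They were the HIF-2a targets, angiogenic and vasoactive factors, mitosis and G2/M, p53 targets, proteases and inhibitors, and the mitochondrial respiratory chain. For the HIF-2a targets, the angiogenic factors and the respiratory chain this also held with the signals as deposited and with median scaling. For these 3 it held with a floor of 50 and with log2(signal + 20) too. For mitosis it held under neither scaling. For p53 targets it held under neither scaling, nor with that floor or log2(signal + 20), and for proteases not as deposited, with that floor or with log2(signal + 20). In the counts of members that follow, the shares over all genes are 4.39% at least 2-fold lower and 7.09% higher on pTR, and 2.71% called lower and 3.27% higher in WT8. The median over all genes was 0.0086.

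**Figure D4:**
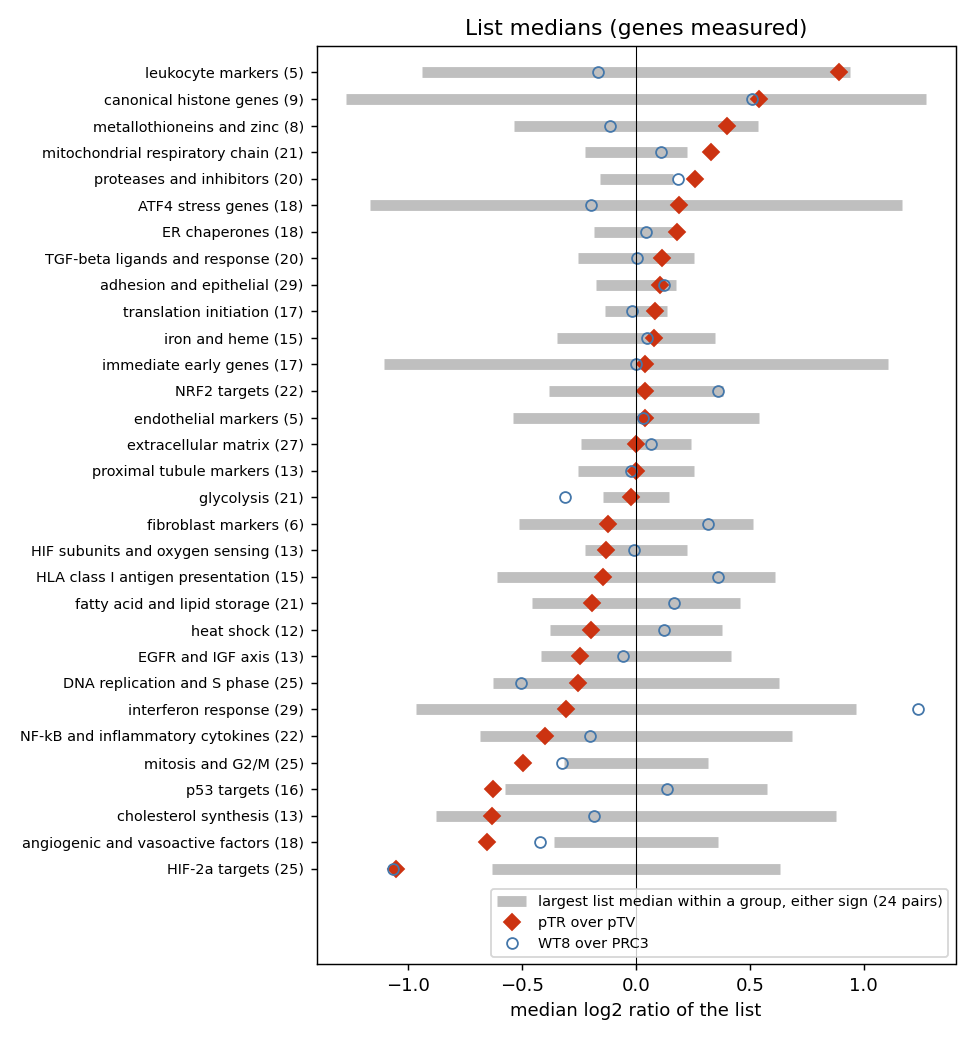
Median log2 ratio (horizontal axis) of each of 31 gene lists for pTR over pTV (red diamonds) and WT8 over PRC3 (open circles); the grey bar spans the largest list median, of either sign, between 2 arrays of 1 group, and the number measured is in parentheses. The HIF-2a targets give -1.06 and -1.07, and interferon response genes -0.31 and 1.24.

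Of 18 angiogenic and vasoactive factors, 7 were at least 2-fold lower on pTR (4.39% of all genes) and 3 higher (7.09%), with a median of -0.65 (largest within a group 0.36). The lower ones were F3, EDN2, EDN1, ANGPT1, ADM, VEGFA and NRP2, of which F3, EDN1, ADM and VEGFA also stand in the results above. EDN2, an endothelin, read the floor on pTR and 190.4 on pTV, and 20, 20 and 20 on the WT8 arrays and 260.2, 116 and 184 on the PRC3 arrays. The higher ones were THBS1, an angiogenesis inhibitor (421 on pTR and 123 on pTV, not past the within-group spread), NRP1, a VEGF co-receptor (1076 on pTR and 338 on pTV), and FGF2, a growth factor (307 on pTR and 134 on pTV). In WT8 limma called 7 of the 18 lower (2.71% of all genes) and 0 higher, and 8 and 0 at an unadjusted p below 0.05.

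Of 25 genes of mitosis and G2/M, 22 were below 0 and 3 were at least 2-fold lower (4.39% of all genes), with a median of -0.50. With median scaling 0 were 2-fold lower, and with the signals as deposited 2 were. BIRC5, the spindle protein survivin, read 341 on pTR and 834 on pTV and from 418 to 1180.0 with a median of 909 elsewhere. MKI67, the proliferation antigen Ki-67, read 325 on pTR and 695 on pTV, and BUB1, a spindle checkpoint kinase, 241 on pTR and 484 on pTV. Each was lowest on pTR among the 26 arrays, and 2 of the 4 probe sets of BUB1 read the floor on both pTR and pTV. In WT8 9 of the 25 were called lower (2.71% of all genes), BIRC5 and MKI67 among them, and each of these calls ended when some single arrays were left out, 2 of the 6 for BIRC5 and 4 of the 6 for MKI67.

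Of 16 measured p53 targets, 5 were at least 2-fold lower, against 4.39% of all genes: MDM2, RRM2B, CDKN1A, ZMAT3 and AEN. MDM2, the ligase that destroys p53, read 52.2 on pTR and 149 on pTV, and CDKN1A, the cell cycle inhibitor p21, 238 on pTR and 657 on pTV. The MDM2 ratio of -1.51 passed its within-group limit of 1.36, and that of CDKN1A, -1.46, did not pass 1.52. None of these 5 was called in WT8, where 1 of the 16 rose.

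Of 20 measured proteases and inhibitors, 3 were at least 2-fold higher (7.09% of all genes) and 0 lower. MMP2, gelatinase A, read 1324 on pTR and 204 on pTV, 115, 89.4 and 71.8 on the WT8 arrays and 266, 243 and 162 on the PRC3 arrays. It was higher on pTR than on all 24 arrays, but MMP2 fell in WT8 (log2 difference -1.28, SE 0.27, adjusted p = 0.00509). The other of its 2 probe sets was dim and nearly equal, at 31.5 on pTR and 33.2 on pTV. TIMP2, an inhibitor and activator of MMP2, read 2071 on pTR and 644 on pTV, with a ratio of 1.68 past 0.64. MMP7, matrilysin, read 441 on pTR and 176 on pTV, within its spread, and rose in WT8 (log2 difference 3.13, adjusted p = 1.99e-05). The respiratory chain list of 21 measured genes had 18 above 0 and 0 past 2-fold, with a median of 0.33.

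Of 27 measured matrix genes 5 were at least 2-fold higher (7.09% of all genes) and 3 lower (4.39%), and their median was 0. The higher ones included all 3 collagen VI chains listed: COL6A3, COL6A1 with 1189 on pTR and 165 on pTV, and COL6A2 with 330 on pTR and 138 on pTV, each above all 24 arrays on pTR, although COL6A2 did not pass its within-group spread. LOXL1, a lysyl oxidase, read 222 on pTR and 32.9 on pTV. On the lower side stood LAMB3, a laminin chain (85.8 on pTR and 224 on pTV), COL8A1 and COL4A1. Of 29 adhesion and epithelial genes 5 were at least 2-fold higher (7.09% of all genes) and 1 lower (4.39%), so the lower count is no more than the share over all genes. CLDN4, a tight junction claudin, read the floor on pTR and 160 on pTV, while CLDN2, a pore-forming claudin, read 200.3 on pTR and 30.9 on pTV and EPCAM, an epithelial adhesion molecule, 81.9 against the floor. EPCAM was at the floor on all 6 PRC3 and WT8 arrays and read 139, 106 and 76.7 on Blk.

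Interferon response genes gave unlike counts on pTR and in WT8, a difference that was not tested. Of 29 measured, 7 were at least 2-fold lower on pTR (BST2, XAF1, OAS3, MX1, IFITM2, ISG15 and USP18), against 4.39% of all genes, and 2 higher (HERC5 and HERC6), near the 7.09% of all genes. The list had a median of -0.31 inside the within-group limit of 0.97. In WT8 limma called 16 of the 29 higher (3.27% of all genes) and 0 lower, and 23 and 0 at an unadjusted p below 0.05. XAF1, a pro-apoptotic interferon target, read the floor on pTR and 156 on pTV, and 180.1, 238 and 219.9 on the WT8 arrays and 103, 109 and 114 on the PRC3 arrays. The difference was at least 7.79-fold on pTR, against a rise in WT8 of 0.96 (SE 0.21, adjusted p = 0.00645). OAS3, which senses viral RNA, read 98.3 on pTR and 366 on pTV, 563, 547 and 397 on the WT8 arrays and 278, 316 and 252 on the PRC3 arrays, with pTR below all 24 arrays; 1 of its 2 probe sets read the floor on both pTR and pTV. HERC5, the ISG15 ligase, went the other way, with 139 on pTR and 21 on pTV, and rose in WT8 (log2 difference 2.55, SE 0.29, adjusted p = 4.46e-06).

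Among inflammatory genes of the NF-kB list 6 of 22 were at least 2-fold lower on pTR (4.39% of all genes) and 0 higher (7.09%). Their median of -0.40 lay inside the 0.69 seen within a group. CXCL8, the neutrophil chemokine IL-8, read 41 on pTR and 343 on pTV, but its signal ran from 20 to 1906 with a median of 135 on the other arrays, with 1859 on WT8 replicate 3 and 1906 on PRC3 replicate 3. ICAM1, an adhesion receptor for leukocytes, read 136 on pTR and 513 on pTV, with pTR below and pTV above all 24 arrays. LIF, a cytokine, read 127 on pTR and 376 on pTV, with pTR again lowest of all. Of 21 fatty acid and lipid storage genes 3 were at least 2-fold lower (HILPDA, LPCAT1 and CPT1A) and 3 higher (DGAT1, CPT2 and ELOVL6), with a median of -0.19 inside the within-group 0.45. DGAT1, which makes triglyceride, read 88 on pTR and 25.8 on pTV, CPT2, a carnitine transferase of mitochondria, 67.8 on pTR and 21.3 on pTV, and ELOVL6, a fatty acid elongase, 1000.5 on pTR and 471 on pTV, all 3 past their spread. The CPT2 ratio of 1.67 was just past 1.64, and its other probe set gave 0.18. Its pTR signal was near the median of the 24 arrays, 60.3. DGAT1 and CPT2 were close to the floor on pTV. With a floor of 50, 1 gene of the list was at least 2-fold higher and 2 were lower. HILPDA, a lipid droplet protein and HIF target, read 74.2 on pTR and 348 on pTV, 103, 92 and 90.1 on the WT8 arrays and 503, 223 and 190.3 on the PRC3 arrays, and LPCAT1, a lysophospholipid acyltransferase, 178 on pTR and 645 on pTV, 181, 202 and 159 on the WT8 arrays and 1419, 1543 and 984 on the PRC3 arrays. Both fell in WT8, with log2 differences of -1.55 (adjusted p = 0.00335) and -2.85 (adjusted p = 1.11e-08).

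The glycolysis list gave a median of -0.02 for pTR over pTV and -0.31 for WT8 over PRC3, and the difference between these was not tested. Of 21 measured, ENO2 and SLC2A3 were at least 2-fold lower on pTR and HK2 higher, against 4.39% and 7.09% of all genes. ENO2, neuronal enolase, read 119.7 on pTR and 331 on pTV, 36.5, 20.8 and 20 on the WT8 arrays and 283, 168 and 131 on the PRC3 arrays, so pTR lay well above the WT8 arrays. HK2, hexokinase 2, read 236 on pTR and 98.2 on pTV. Of its 3 probe sets, the other 2 were at or near the floor, 1 at 20 on both arrays and 1 at 20 on pTR and 23.8 on pTV. The direction of the glycolysis median itself turned, to 0.12, with median scaling.

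Of 13 measured tubule genes 1 was at least 2-fold lower on pTR and 1 higher, near the 4.39% and 7.09% of all genes, and the median was 0. PAX2, a kidney lineage factor, read 22.1 on pTR and 126 on pTV, and no other array was below 74. VCAM1, an adhesion receptor found on tubule cells, read 1745 on pTR and 509 on pTV, the former above all 24 arrays, and rose in WT8 (log2 difference 2.35, SE 0.24, adjusted p = 8.82e-07). The other 11 tubule genes were within 2-fold of each other on pTR and pTV.

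WT8 against PRC3 supplied the tested comparison, which shares no array with pTR and pTV. limma called 1597 of 35013 probe sets, 775 lower (2.21%) and 822 higher (2.35%). Over genes, 410 fell (2.71%) and 494 rose (3.27%), of which 161 (1.06%) and 225 (1.49%) did so by at least 2-fold. Of the 161 that fell by at least 2-fold in WT8, 60 (37.3%) were at least 2-fold lower on pTR and 20 (12.4%) higher, with a median ratio of -0.53. Of the 225 that rose as far, 66 (29.3%) were higher on pTR and 17 (7.56%) lower, with a median of 0.30. Between 2 arrays of the 6 other groups, the largest share in 1 direction was 16.1% for the first set and 7.11% for the second, and the largest medians were 0.24 and 0.16 in size. The arrays of these 6 groups also entered the limma spread estimate by which the genes were called, which favours genes that vary little between them. These reference values may therefore be too small.

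Leaving out 1 array of WT8 or PRC3 left 28.2% to 37.9% of the genes that fell in WT8 lower on pTR and 26.4% to 29.0% of those that rose higher. The first median was -0.24 without PRC3 replicate 1, -0.30 without WT8 replicate 1 and -0.30 in the fit blocked on replicate number, and the second ranged from 0.20 to 0.36. With the block 67 of 192 (34.9%) and 75 of 258 (29.1%) were at least 2-fold apart on pTR in the direction of WT8. With median scaling the first median, -0.27, lay inside the 0.32 seen between replicate arrays. The second lay inside that spread with the signals as deposited (0.20 against 0.24) and with a floor of 50 (0.12 against 0.17). When limma was fitted on the PRC3 and WT8 arrays alone, 8 genes rose by at least 2-fold, of which 1 (12.5%) was higher on pTR and 2 (25%) lower, with a median of -0.14.

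Read from the pTR side, most genes apart on pTR were not called in WT8. Of 664 genes at least 2-fold lower on pTR, 60 (9.04%) fell and 17 (2.56%) rose by at least 2-fold in WT8, 16 fell and 17 rose by less, and 554 (83.4%) were not called. Of 1072 higher on pTR, 66 (6.16%) rose and 20 (1.87%) fell by at least 2-fold in WT8, 18 rose and 18 fell by less, and 950 (88.6%) were not called. Across all 15124 genes the Pearson correlation of the ratios was 0.11, where pairs of replicate arrays reached 0.085 in size, and Spearman's rho was 0.043. Across the 386 genes called and 2-fold apart in WT8 the Pearson correlation was 0.40, against up to 0.29, and rho was 0.34. The values for replicate pairs are Pearson correlations, and rho has no such reference here. The 386 genes were called with the spread of these same replicate arrays, so the 0.29 may be too small. These are descriptions across genes, which are not replicates.

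**Figure D5:**
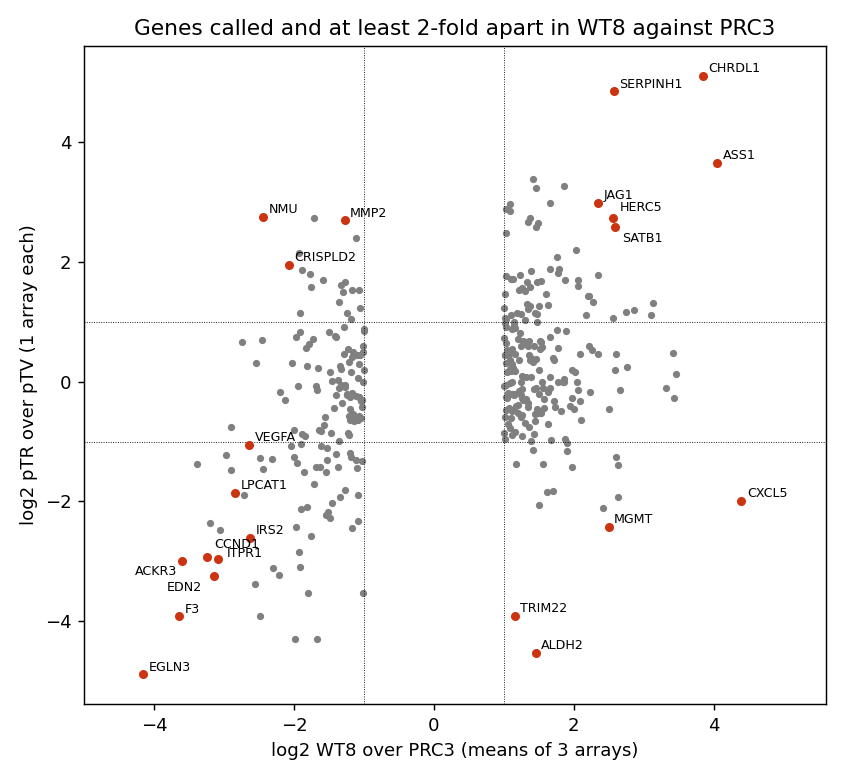
Log2 ratio of pTR over pTV (vertical, 1 array each) against WT8 over PRC3 (horizontal, means of 3 arrays) for the 386 genes called and at least 2-fold apart in WT8; dotted lines are 2-fold and red points carry names. The lower left holds 60 genes, the upper right 66, the upper left 20 and the lower right 17.

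Among the genes lower on both sides, those ranked highest by the smaller ratio were EGLN3, F3, EDN2, ACKR3, ITPR1, CCND1, IRS2 and FABP6. ACKR3, a scavenger receptor for CXCL12, read 25.7 on pTR and 204 on pTV, 20, 20 and 20 on the WT8 arrays and 448, 214 and 151 on the PRC3 arrays. The other of its 2 probe sets read the floor on both pTR and pTV. IRS2, an adaptor of the insulin receptor, read 359.6 on pTR and 2183 on pTV, 381, 231 and 394 on the WT8 arrays and 2222, 1839 and 2004 on the PRC3 arrays. Its pTR signal lay among the WT8 arrays and its pTV signal among the PRC3 arrays, at ratios of -2.60 and -2.63 (SE 0.21, adjusted p = 3.20e-08). FABP6, a bile acid carrier, read the floor on pTR and on all WT8 arrays, and 209 on pTV.

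Higher on both sides were CHRDL1, ASS1, SATB1, SERPINH1, HERC5, JAG1, TMCC3 and CLU by the same ranking. JAG1, a Notch ligand, read 807 on pTR and 102 on pTV, 574, 923 and 521 on the WT8 arrays and 100, 106 and 196 on the PRC3 arrays, and all 4 of its probe sets were higher on pTR. SATB1, a chromatin organizer, read 457 on pTR and 76.4 on pTV, with the PRC3 arrays at the floor and the WT8 arrays at 111, 97.9 and 158. CLU, the chaperone clusterin, read 193 on pTR and the floor on pTV, 277, 205 and 50.4 on the WT8 arrays and 62.3, 47.7 and 20 on the PRC3 arrays. Its rise in WT8 (log2 difference 1.86, SE 0.47, adjusted p = 0.0209) ended without PRC3 replicate 3, WT8 replicate 1 or WT8 replicate 2.

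Genes with opposite directions were fewer. NMU, the peptide neuromedin U, read 1462 on pTR and 216 on pTV, 120, 164 and 177 on the WT8 arrays and 793, 905 and 776 on the PRC3 arrays, so that pTR was higher than all 24 arrays while NMU fell in WT8 (log2 difference -2.44, SE 0.24, adjusted p = 5.34e-07). CXCL5, a neutrophil chemokine, read 235 on pTR and 933 on pTV, 1015, 895 and 1893 on the WT8 arrays and 28.9, 64.8 and 98.2 on the PRC3 arrays, and rose in WT8 (log2 difference 4.40, SE 0.33, adjusted p = 8.88e-09). CRISPLD2 and WLS, a carrier of Wnt ligands, were higher on pTR (448 on pTR and 116 on pTV, and 171 on pTR and 38.7 on pTV) and fell in WT8. LRIG1, a brake on EGFR, read 72.8 on pTR and the floor on pTV and on all Blk arrays.

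MGMT, which repairs alkylated guanine in DNA, PRTFDC1, a relative of purine salvage enzymes, and GALNT5, a glycosyltransferase, read at or near the floor on pTR and PRC3 and well above it on pTV, WT8 and Blk. MGMT read the floor on pTR and all 3 PRC3 arrays, and 107 on pTV, 161, 114 and 79.2 on WT8 and 154, 135 and 109 on Blk. PRTFDC1 read the floor on pTR and all PRC3 arrays, and 86.3 on pTV, 92.8, 108 and 120.4 on WT8 and 68, 97 and 94.5 on Blk. GALNT5 read the floor on pTR, 20.8, 20 and 20 on PRC3, 75.7 on pTV, 143, 127 and 109 on WT8 and 91.7, 96.7 and 86.8 on Blk. All 3 rose in WT8, with adjusted p of 2.40e-07, 9.90e-08 and 2.26e-08.

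The Blk arrays gave a further point of reference. For the 60 genes lower on both sides, the Blk mean was nearer to PRC3 than to WT8 in 54, and for the 66 higher on both sides in 48. For genes with opposite directions it was nearer to PRC3 in 9 of 20 that fell in WT8 and in 5 of 17 that rose there. Over all genes called in WT8 the counts were 125 of 161 (77.6%) and 132 of 225 (58.7%).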

How the data were processed

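The analysis starts from 1 table of array signals for 26 arrays. The deposited intensities were made by the authors with MAS5, per the submitters' processing notes; the sources used here give neither its version nor a genome build. Per the labels the authors set values below 20 or above 16000 to those limits and removed genes that varied little, but 45.5% of the deposited values are below 20 and 90.8% of the 54675 probe sets are ones such a filter would remove, so neither step shows in the table. Depth does not apply to arrays, and the number of arrays limits the precision.

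Here 62 control probe sets were left out, the 26 arrays were quantile normalized together, a floor of 20 and a ceiling of 16000 were applied before log2 was taken. The 35013 probe sets kept were at or above their array's median on at least 3 of the 24 replicated arrays; pTR and pTV played no part in that filter. Gene names come from the platform annotation: 28327 kept probe sets have 1 gene, 1297 several and 5389 none. Each of 15124 genes is read from its brightest probe set by mean log2 signal over the 24 arrays. A ratio against a value of 20 is a lower bound, and limma differences with arrays at that floor depend on it.

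WT8 and PRC3 were compared with limma 3.58.1 (lmFit, eBayes with trend) in R 4.3.3, fitted over the 24 arrays with 16 residual degrees of freedom and Benjamini-Hochberg adjustment below 0.05 over all probe sets kept. The fit was tested on simulated data. Python 3.11.15 did the rest. Same-numbered WT8 and PRC3 arrays deviated together (correlations of 0.107, 0.346 and 0.457). The main fit leaves the replicate number out, and WT8 values are from that fit unless the block is named. A fit with the replicate number as a block was run as an alternative, and it called 2313 probe sets in place of 1597.

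The genes named are the HIF-2a targets with EPAS1, ARNT, VHL and HIF1A; the 12 largest differences each way among genes past the within-group spread with the brighter array at or above the 70th percentile; the 4 widest members of each list with at least 3 members 2-fold apart; and 8 genes of each kind shared with or opposed to WT8. Other genes named were chosen after their values were seen. The arrays, lists and comparisons were chosen with earlier results of these data known. Alternatives tried were the deposited scale, median scaling, the floor, log2(signal + 20), the filter, the fold threshold, the mean over probe sets, the block, WT8 and PRC3 alone, and leaving out each array.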

Additional observations from a re-analysis of the deposited data

How the results depend on the processing

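With 1 array of pTR and 1 of pTV, no error of their ratio can be given. The EPAS1 ratio ran from -1.20 to -0.89 over its alternatives and the HIF-2a target median from -1.06 to -0.78, both in the same direction throughout. A floor of 50 left 1020 probe sets at least 2-fold lower on pTR and 1020 higher, and 779 and 880 past the within-group spread. A 1.5-fold threshold gave 5490 lower and 5303 higher, with 2027 and 2240 past the spread, and a 3-fold threshold 499 and 505, with 404 and 431 past it. The median pTR over pTV ratio of genes that fell in WT8 was -0.27 with median scaling and -0.30 with the replicate block, and from -0.58 to -0.24 when 1 array was left out. That of genes that rose in WT8 was 0.20 on the deposited scale, 0.41 with median scaling, 0.12 with a floor of 50, 0.17 with log2(signal + 20), 0.39 with the filter set on pTR or pTV, and from 0.20 to 0.36 when 1 array was left out. It reversed, to -0.14 over 8 genes, when limma was fitted on the PRC3 and WT8 arrays alone. That fit called 19 probe sets in place of 1597. It estimates the spread from fewer arrays and from those groups only, and the part of each was not tested. Leaving out 1 array gave 1006 calls (without WT8 replicate 2) to 1869, and the replicate block 2313; the block added calls for CXCR4, DDIT4, TMEM47, UGT1A6, GSTM3, SLC2A3 and EIF5 and removed none among the genes named. Of 59 named genes called in WT8, 42 stayed called in all 6 fits that left out 1 array. Of the ratios of named genes on pTR over pTV, 705 values under the alternatives stayed within the spread between replicates and 57 did not. Except where named, causes were not tested. The floor limits what can be said of dim genes, for which folds are bounds.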

Other observations

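Several gene lists that stayed within the spread of replicate arrays still held members at the edge of the series. All 13 measured cholesterol synthesis genes were lower on pTR than on pTV, with a median of -0.63, but 2 arrays of 1 group differed by up to 0.88 on that list. MSMO1, a sterol oxidase, read 551 on pTR and 1704 on pTV, with pTR below all 24 replicated arrays, and HMGCS1, which makes HMG-CoA, read 162 on pTR and 404 on pTV. In the ATF4 stress list NUPR1, a stress-induced chromatin protein, read 804 on pTR and 136 on pTV and DDIT3, the transcription factor CHOP, 549 on pTR and 199 on pTV, both above all 24 arrays on pTR; only NUPR1 passed its within-group spread. DNAJB9, an ER co-chaperone, went the other way at 105 on pTR and 259 on pTV, below all 24 arrays.

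Of 13 measured genes of the EGFR and IGF axis, 3 were at least 2-fold lower on pTR (4.39% of all genes) and 2 higher (7.09%), and of 20 TGF-beta genes 0 were lower and 4 higher; neither median, -0.25 and 0.11, passed the 0.42 and 0.25 seen within a group. EREG, the EGFR ligand epiregulin, read 1487 on pTR and 253 on pTV, opposite to the other ligand TGFA, and from 116 to 989.6 with a median of 443 elsewhere. TGFBR2, a receptor of TGF-beta, read 918 on pTR and 331 on pTV and from 281 to 471 with a median of 348 elsewhere, with a within-group limit of 0.40 against a ratio of 1.47. SMAD6, an inhibitor of BMP signalling, and BMP2, a BMP ligand, read 78.1 and 93.9 on pTR, 20 and 30.6 on pTV, and were above all 24 arrays on pTR. IGFBP7, a secreted binding protein, read 532 on pTR and 1429 on pTV, below all 24 arrays on pTR, and rose in WT8 (log2 difference 1.98, SE 0.20, adjusted p = 1.12e-06).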
